A study of Mus musculus with 5 samples.

Results

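The genes described here encode the dimer partners of NEUROD2 and the inhibitors of these partners, and they are the 7 genes Tcf3, Tcf4, Tcf12, Id1, Id2, Id3 and Id4 out of 21938 protein-coding genes annotated on the mouse chromosomes. They were chosen by name, as members of these families, and no threshold on a measured value was applied. For each gene, the NEUROD2 peaks that overlapped its body or the 50 kb on either side were taken, together with the rows of the authors' table of shared sites in the same span. ChIP-Seq, which recovers and sequences the DNA bound by a protein, was performed on cerebral cortex of untreated BALB/c pups at postnatal day 0, with cortices of littermates pooled. The antibodies to NEUROD2, all from Abcam, were each used for 1 library, namely ab168932 (antibody 1), ab104430 (antibody 2) and ab109406 (antibody 3). A GFP antibody served as the control of peak calling, and the reads of its library and of input DNA were not analysed here. The libraries of the antibodies stand here as repeated measurements of the same binding. The methods describe a single pool of littermates, so that the spread between antibodies does not measure differences between animals. No condition was varied, so the results are descriptions and no test was run.

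NEUROD2 is a basic helix-loop-helix (bHLH) transcription factor of cortical excitatory neurons. Factors of this kind bind the E-box, CANNTG, as dimers, and the usual partner is an E protein, a broadly expressed bHLH factor. Tcf3 encodes the E2A proteins, Tcf4 encodes the E protein also known as ITF2, and Tcf12 encodes HEB. Id proteins have the helix-loop-helix through which dimers form but lack the basic region that contacts DNA, so that an E protein held by an Id protein cannot bind. In the developing cortex, Id genes are known for expression in progenitors and for induction by BMP signaling.

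A site found with every antibody was present in the spans of Tcf12, Tcf3 and Id1, that is in 3 of the 7 genes, and over all protein-coding genes 15.6% had such a site in the same span. With scores of at least 100 from every antibody the count was 0 and the share 7.53%. With the gene body alone they were 1 and 5.20%. Only at Tcf12 did a site of all antibodies lie at the gene's own start. The midpoint of the Id1 site lay 12237 bp upstream of the gene, and the site held E-boxes of a single form. The site in the Tcf3 span lay at the promoter of a neighboring gene, Mbd3. Tcf4, which has the longest span (445.7 kb), had more peaks than any other of these genes, 9, but no site shared by all antibodies. Tcf3 had 7 peaks in 124.1 kb. Id2 and Id4 had peaks of antibody 2 alone, and no peak of any antibody was found in the Id3 span.

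The reference sequences (GRCm38, plus strand, 5′ to 3′) of the central 200 bp of the sites shared by all antibodies are shown with each E-box in capitals. They were read from the C57BL/6J reference and not from the BALB/c mice. The Tcf12 window is chr9:72111957-72112156, entirely upstream of the annotated start of transcription.
Tcf12 promoter: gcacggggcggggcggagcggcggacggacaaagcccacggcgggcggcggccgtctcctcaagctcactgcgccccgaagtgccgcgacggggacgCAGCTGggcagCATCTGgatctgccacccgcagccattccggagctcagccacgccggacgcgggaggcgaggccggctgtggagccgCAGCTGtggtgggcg
The Id1 window is chr2:152723915-152724114, in intergenic sequence.
Id1 upstream site: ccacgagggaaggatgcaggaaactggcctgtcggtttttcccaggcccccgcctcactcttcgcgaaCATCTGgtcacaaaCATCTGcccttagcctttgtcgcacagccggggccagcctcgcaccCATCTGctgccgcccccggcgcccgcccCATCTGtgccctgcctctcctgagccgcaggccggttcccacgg
The window of the site in the Tcf3 span is chr10:80398991-80399190, inside Mbd3, and holds no E-box. It lies wholly outside the antibody 3 peak, which ends at 80398977, and so outside the stretch common to the 3 peaks.
Mbd3 site: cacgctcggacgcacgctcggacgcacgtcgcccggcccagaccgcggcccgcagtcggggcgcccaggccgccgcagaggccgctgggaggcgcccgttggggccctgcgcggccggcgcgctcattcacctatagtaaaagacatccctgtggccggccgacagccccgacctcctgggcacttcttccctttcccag

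The windows differ in their E-boxes. At Tcf12, the CAGCTG at the very midpoint of the site is followed on the plus strand by a CATCTG and a second CAGCTG. At Id1, every E-box reads CATCTG on the plus strand, the reverse complement of CAGATG. At Mbd3, the center holds no CANNTG. The GC content is 75.5% in the Tcf12 window, 67.0% in the Id1 window and 73.5% in the Mbd3 window.

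**Figure D1:**
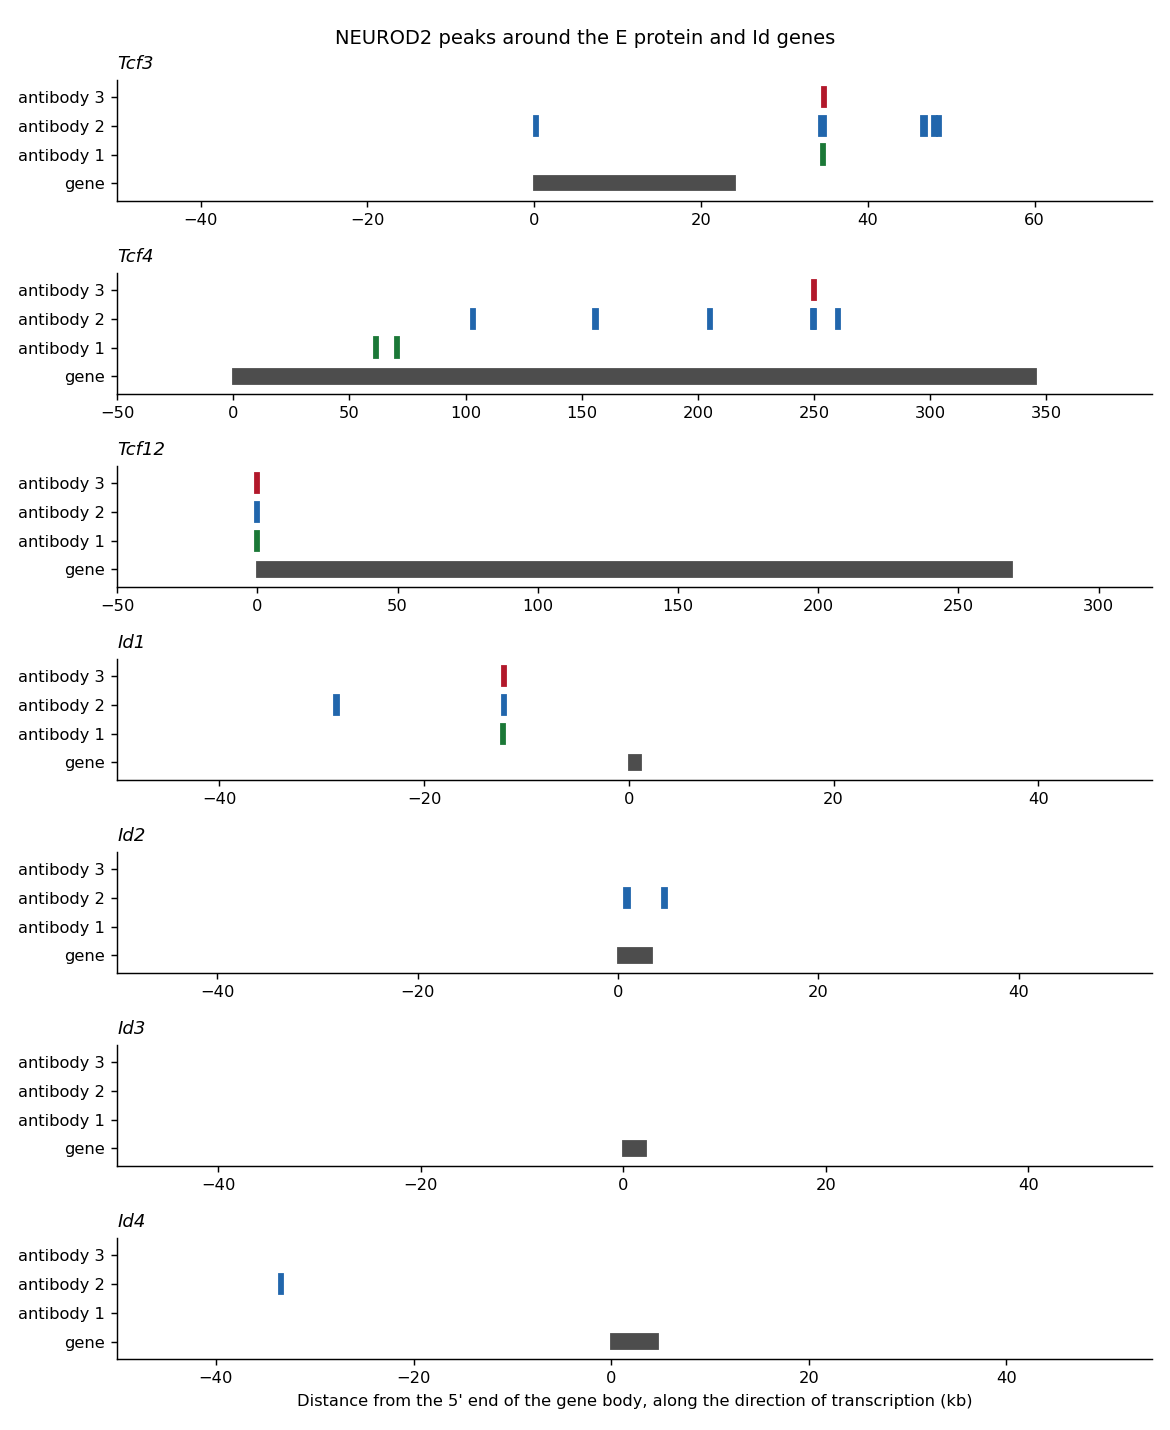
Positions of the NEUROD2 peaks in the spans of the 7 genes, with distance from the 5′ end of the gene body in kb along the direction of transcription on the horizontal axis and 1 lane per antibody (colored marks) above the gene body (gray bar), short peaks being drawn wider than they are. The 3 antibodies line up at Tcf12, in the Tcf3 span and upstream of Id1, and the Id3 span is empty.

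The 7 spans covered 1351 kb and held 26 peaks, 5 of antibody 1, 17 of antibody 2 and 4 of antibody 3. The full lists hold 5202, 11196 and 3164 peaks. Merging peaks that shared at least 1 bp gave 19 sites, of which 3 had all antibodies, 1 had antibodies 2 and 3, 13 had antibody 2 alone and 2 had antibody 1 alone. Antibody 2 alone thus made up 68.4% of the sites here and 52.2% of all 12637 merged sites of the series. When antibody 2 was left out, 6 of the 19 sites remained.

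A peak of any antibody was present in the span of 6 of the 7 genes, and 55.3% of protein-coding genes had one. By antibody, 4 of the 7 genes had a peak of antibody 1 (29.4% of protein-coding genes), 6 had a peak of antibody 2 (52.7%) and 4 had a peak of antibody 3 (22.1%). Peaks lay 2.52 ± 0.561 times as densely in the spans as over the whole genome (mean ± SD, n = 3 antibodies), with a ratio of 1.94 for antibody 1, 3.06 for antibody 2 and 2.55 for antibody 3. The genome includes gene-poor sequence, so this ratio does not set the 7 genes apart from other genes.

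Long genes have long spans, and the members differ widely in length. Tcf4 extends over 346 kb, Tcf12 over 269 kb and Tcf3 over 24.1 kb, whereas the Id genes measure between 1.16 and 4.80 kb. Among the 998 protein-coding genes of 200 kb or more, 31.8% had a shared site in the span and 78.3% had a peak. Both Tcf4 and Tcf12 had a peak and 1 of them had a shared site. Among the 7774 genes under 10 kb, 12.4% had a shared site and 44.8% a peak. Of the 4 Id genes, 1 had a shared site and 3 had a peak. The counts of the members were not tested against these shares.

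**Figure D2:**
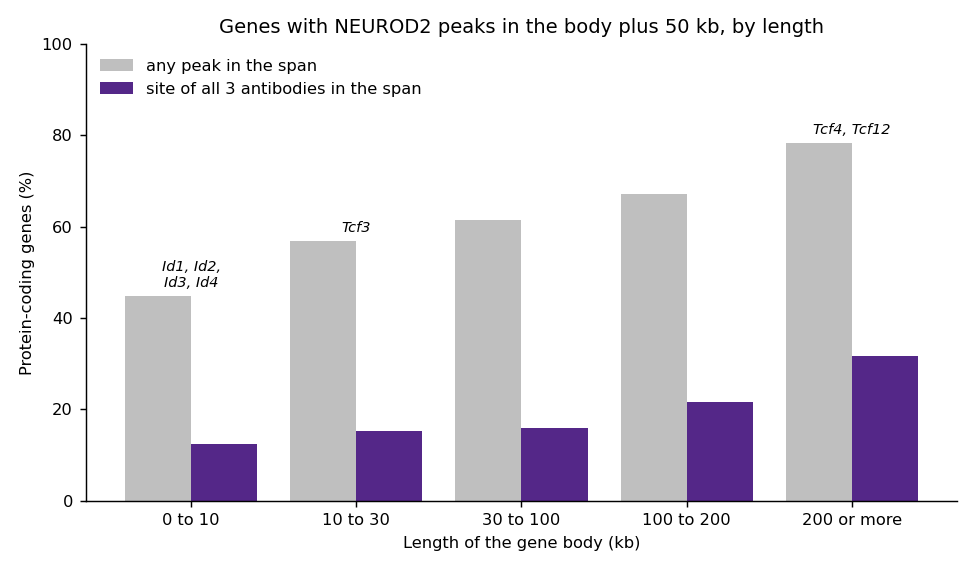
Percentage of protein-coding genes (vertical axis) with any peak (gray bars) or with a site of all 3 antibodies (purple bars) in the body plus 50 kb on each side, by length of the gene body in kb (horizontal axis), with the 7 genes named above their class. Both shares rise with length, from 44.8% and 12.4% under 10 kb to 78.3% and 31.8% at 200 kb or more.

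Tcf12 (ENSMUSG00000032228) lies on the minus strand of chromosome 9, from 71842688 to 72111871 (GRCm38). Its site spans 452 bp from 72111831 to 72112282, with the midpoint 185 bp upstream of the 5′-most TSS, so that it covers the promoter and the first bases of the 5′ UTR. The peaks carry MACS scores, in which the log10 of the p is multiplied by minus 10. The score was 129.64 with antibody 1, 297.45 with antibody 2 and 77.01 with antibody 3. Scores are not scaled between antibodies, and ranks within each list are easier to compare. The peak ranked 1624th of 5202 with antibody 1, 1197th of 11196 with antibody 2 and 1568th of 3164 with antibody 3, that is among the upper 31.2%, 10.7% and 49.6% of the lists. The 3 peaks had midpoints within 47 bp of each other and shared 359 bp.

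In the authors' table the Tcf12 site is classed as promoter and carries a score of 504.1, the sum of the scores of the 3 antibodies, which ranked 1239th among the 2088 sites merged here from all antibodies. It was the only site in the whole span, and neither the introns nor the downstream starts of the shorter Tcf12 transcripts had a peak. A shared site with its midpoint within 1000 bp of a TSS was found for 2.83% of protein-coding genes. Tcf12 has 20 annotated TSSs, and among the 106 genes with at least as many this share was 10.4%.

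All 5 E-boxes of the Tcf12 site lay inside the 359 bp common to the 3 peaks and together spanned 178 bp. They were CAGCTG from 72112054 to 72112059, CATCTG from 72112065 to 72112070, CAGCTG from 72112142 to 72112147, CACCTG from 72112208 to 72112213 and CACCTG from 72112226 to 72112231. The first 2 were 11 bp apart, counted from start to start. The central 200 bp held 3 E-boxes, against a mean of 2.44 over the centers of all shared sites, 40.3% of which had 3 or more. CAGCTG was present in 41.7% of these centers and the CAGATG form, which includes CATCTG, in 54.4%.

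Tcf3 (ENSMUSG00000020167) lies on the minus strand of chromosome 10, from 80409514 to 80433647. At its own promoter only antibody 2 had a peak, 357 bp from 80433199 to 80433555 with a score of 91.03, which ranked 5778th of 11196. The midpoint was 244 bp downstream of a TSS, in an exon of an annotated transcript, and the peak held 1 E-box, a CACCTG. Neither antibody 1 nor antibody 3 had a peak there, the nearest ones lying 10362 bp and 10537 bp beyond the 3′ end of the gene.

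These nearest peaks belong to the shared site of the Tcf3 span, 788 bp from 80398697 to 80399484, whose midpoint was 332 bp from a TSS of Mbd3 and 16397 bp from the closest TSS of Tcf3. Mbd3 encodes a methyl-CpG-binding domain protein of the NuRD complex, and the authors' table assigns the site to the Mbd3 promoter. Its scores were 70.19 with antibody 1, 356.47 with antibody 2 and 78.22 with antibody 3. The peak of antibody 2 had the highest score of all 26 (rank 901), while the peak of antibody 1 ranked 3265th of 5202. The summed score of 504.88 was nearly that of Tcf12. Only 2 E-boxes occurred in the 788 bp, both CAGCTG. The first, from 80398973 to 80398978, lay in the peaks of antibodies 1 and 2 and crossed the end of the antibody 3 peak at 80398977. The 153 bp common to the 3 peaks therefore held no whole E-box. The central 200 bp, which lay outside the antibody 3 peak, also held none. Among all shared sites, 10.6% had no E-box in the central 200 bp.

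The other 3 sites in the Tcf3 span, all of antibody 2 alone, formed a row near the start of Mex3d, which encodes an RNA-binding protein. Their midpoints were 732, 2004 and 2552 bp from the closest TSS of Mex3d. The scores were 131.32, 112.19 and 63.29 in that order, and the nearest to Mex3d had the highest. With respect to Tcf3 these sites lay more than 22 kb downstream of the gene.

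**Figure D3:**
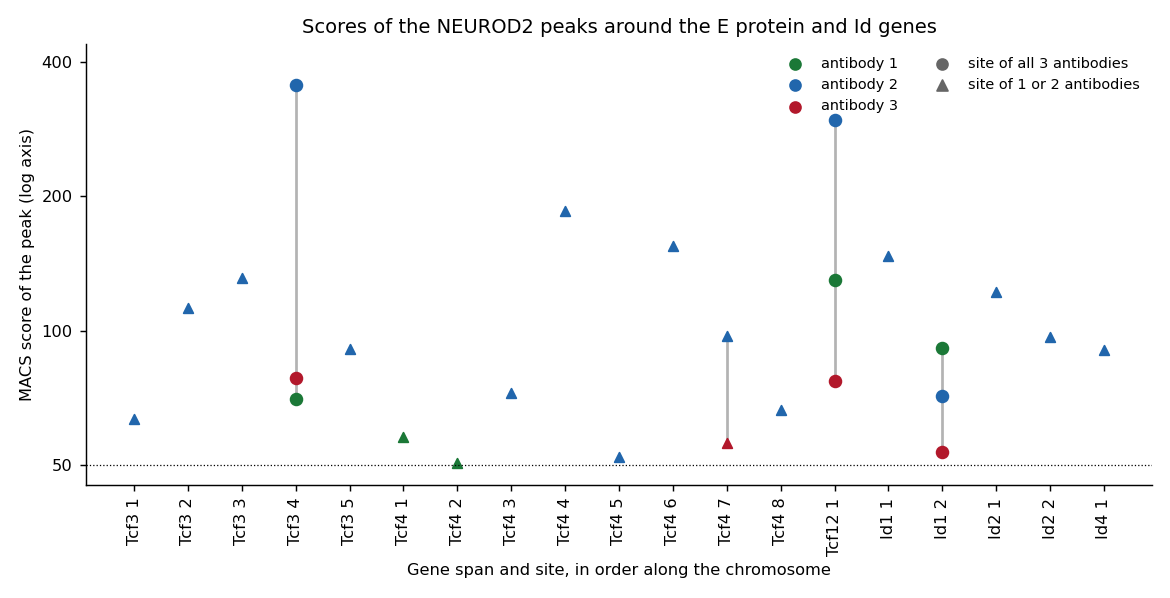
MACS scores (vertical axis, log scale) of the 26 peaks at the 19 sites, numbered for each gene in order along the chromosome (horizontal axis), with color for the antibody, circles for sites of all 3 antibodies and triangles for the others, and the lowest score of the lists, 50, as a dotted line. Antibody 2 reached 356.47 at Tcf3 site 4 and 297.45 at Tcf12, whereas at Id1 site 2 antibody 1 lay above the other antibodies.

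Id1 (ENSMUSG00000042745) spans 1160 bp on the plus strand of chromosome 2, from 152736251 to 152737410. The shared site upstream of it extends over 457 bp from 152723786 to 152724242. No TSS of any annotated gene was closer to its midpoint than that of Id1, and the authors' table classes it as intergenic with no gene. The scores were 91.20 with antibody 1, 71.24 with antibody 2 and 53.47 with antibody 3. Here antibody 1 gave the highest score and antibody 2, which led at the other shared sites described above, ranked only 7575th of 11196. The summed score of 215.91 ranked 2045th of 2088, so that this was one of the weakest sites shared by all antibodies, and the peak of antibody 3 exceeded only slightly the minimum score of 50.

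The weak score stood beside an unusual content of E-boxes. The Id1 site held 5 E-boxes within 159 bp, and all 5 were CATCTG in the same orientation, from 152723983, 152723997, 152724043, 152724071 and 152724136. Counted from start to start, the distances were 14, 46, 28 and 65 bp. The first 4 were covered by the peaks of all antibodies and lay in the central 200 bp. Of the 2088 shared sites, 29 (1.39%) held 4 or more E-boxes of this form in the center, and in 25 of them (1.20%) 4 or more had the same orientation. Among the sites of a single antibody, 8041 without the 5 that lie off the assembled nuclear chromosomes, the share with 4 or more was 0.373%. The form and the number 4 were picked after the sequence of the Id1 site had been seen.

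A further site in the Id1 span had antibody 2 alone, with a score of 146.79, 534 bp from 152707444 to 152707977. Its midpoint lay 28541 bp upstream of Id1, and the closest TSS belonged to the noncoding gene Gm26841 at 11018 bp. It held 4 E-boxes, 2 of them CAGCTG. No peak was found in the body of Id1 or within 12009 bp of it.

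For Id2 and Id4 all peaks came from antibody 2. Id2 (ENSMUSG00000020644) lies on the minus strand of chromosome 12, from 25093799 to 25097140, and had a peak inside its body and another just past its 3′ end. The first, 598 bp from 25095966 to 25096563 with a score of 96.83, covered the TSS of a shorter transcript, ENSMUST00000020974, at 25096092. This TSS is 1.05 kb downstream of the 5′-most one, and the midpoint of the peak was 172 bp upstream of it, in an intron of the longest transcript. The second, 575 bp from 25092212 to 25092786 with a score of 121.86, had its midpoint 1300 bp beyond the end of the gene and held 4 E-boxes within 138 bp, each of a different form, among them CACGTG. The reference sequence of chr12:25092400-25092599, the center of this downstream site, is shown for comparison with the uniform E-boxes at Id1, and is followed by chr12:25096254-25096453, 200 bp of the peak at the start of the shorter transcript.
Id2 downstream site: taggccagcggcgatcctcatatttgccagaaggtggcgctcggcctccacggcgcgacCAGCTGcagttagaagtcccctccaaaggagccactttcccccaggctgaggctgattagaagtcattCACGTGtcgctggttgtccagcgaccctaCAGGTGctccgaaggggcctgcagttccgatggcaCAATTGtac
Id2 site at the shorter transcript: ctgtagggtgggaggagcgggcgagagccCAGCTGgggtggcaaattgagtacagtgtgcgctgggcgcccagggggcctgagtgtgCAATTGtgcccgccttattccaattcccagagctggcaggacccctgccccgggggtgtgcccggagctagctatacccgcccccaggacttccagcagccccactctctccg
The second stretch holds a CAGCTG and a CAATTG, and neither stretch has the CAGATG form.

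Id4 (ENSMUSG00000021379), on chromosome 13 from 48261228 to 48266026, had a single peak in its span, 232 bp from 48227684 to 48227915, with the midpoint 33429 bp upstream of its TSS. The score was 90.45 with antibody 2, a rank of 5815 of 11196, and the closest TSS was that of the noncoding gene Gm36346 at 9452 bp. The only E-box of this site, a CAGCTG from 48227798 to 48227803, lay 1 bp from the midpoint. Id3 (ENSMUSG00000007872), on chromosome 4 from 136143497 to 136145755, had no peak in its span. The nearest peak of antibody 2 was 78272 bp from the gene with a score of 147.53, and those of antibodies 1 and 3 were 292376 bp and 269270 bp away. Binding below the threshold of the peak lists was not analysed here.

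The limit of 50 kb decided some of these counts. Here distances are given from the gene body to the nearer edge of the site, not to its midpoint. For Id2, a site of all 3 antibodies with a summed score of 476.29 lay 92039 bp from the gene, and it would enter with a wider span. The closest sites outside the spans were 66243 bp from Id1 (score 111.41), 87389 bp from Tcf3 (54.14), 104224 bp from Tcf4 (154.18), 214615 bp from Id4 (378.71) and 363675 bp from Tcf12 (494.64). The farthest sites inside were 33313 bp from Id4, 28274 bp from Id1 and 24238 bp from Tcf3.

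Tcf4 (ENSMUSG00000053477) is the largest of the genes, on the plus strand of chromosome 18 from 69343356 to 69689079, with 58 annotated TSSs. Its 9 peaks formed 8 sites, all inside the gene body, with midpoints 61376 to 260363 bp downstream of the 5′-most TSS. None lay at that TSS. Antibody 1 gave 2 of the sites, with scores of 57.80 and 50.35 that ranked 4166th and 5084th of 5202. Antibody 2 alone gave 5 sites with scores of 185.21, 155.22, 72.60, 66.43 and 51.91. Antibodies 2 and 3 shared the remaining site, with scores of 97.46 and 55.99. No site had peaks of both antibody 1 and another antibody.

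The sites with the higher scores in Tcf4 lay at the starts of shorter transcripts. The peak with a score of 185.21 (69499071 to 69499549) had its midpoint 79 bp upstream of the TSS of ENSMUST00000201181, 156 kb into the gene. The peak with a score of 155.22 (69592634 to 69593024) was 159 bp upstream of the TSS of ENSMUST00000114978, and the site of antibodies 2 and 3 (69593158 to 69593441) was 73 bp upstream of that of ENSMUST00000201091. All 3 transcripts are annotated as protein-coding, and the last pair of starts lies about 250 kb into the gene. The other 5 sites, 1 of them closest to the rRNA gene Gm24845, were 2015 to 30499 bp from the closest TSS of Tcf4, and their scores did not exceed 72.60. For 4 of the 7 genes, Tcf3, Tcf4, Tcf12 and Id2, a site of any antibody had its midpoint within 1000 bp of a TSS. The share was 19.6% over all protein-coding genes and 50.9% among genes with 20 or more TSSs. Of the 4 genes, only Tcf4 and Tcf12 belong to the latter class, while Tcf3 has 11 TSSs and Id2 has 3.

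E-boxes were present at every Tcf4 site. The peak at ENSMUST00000201181 held 6, the highest number of the 19 sites, within 195 bp, and 5 of them were in the central 200 bp. A center with 5 or more was found in 3.84% of the sites of antibody 2 alone and in 8.86% of the shared sites. Of these 6 E-boxes, 3 had the CAGATG form. The site of antibodies 2 and 3 had 2 E-boxes, a CATATG and a CAACTG, both covered only by the peak of antibody 3, and none in the 119 bp common to both peaks.

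**Figure D4:**
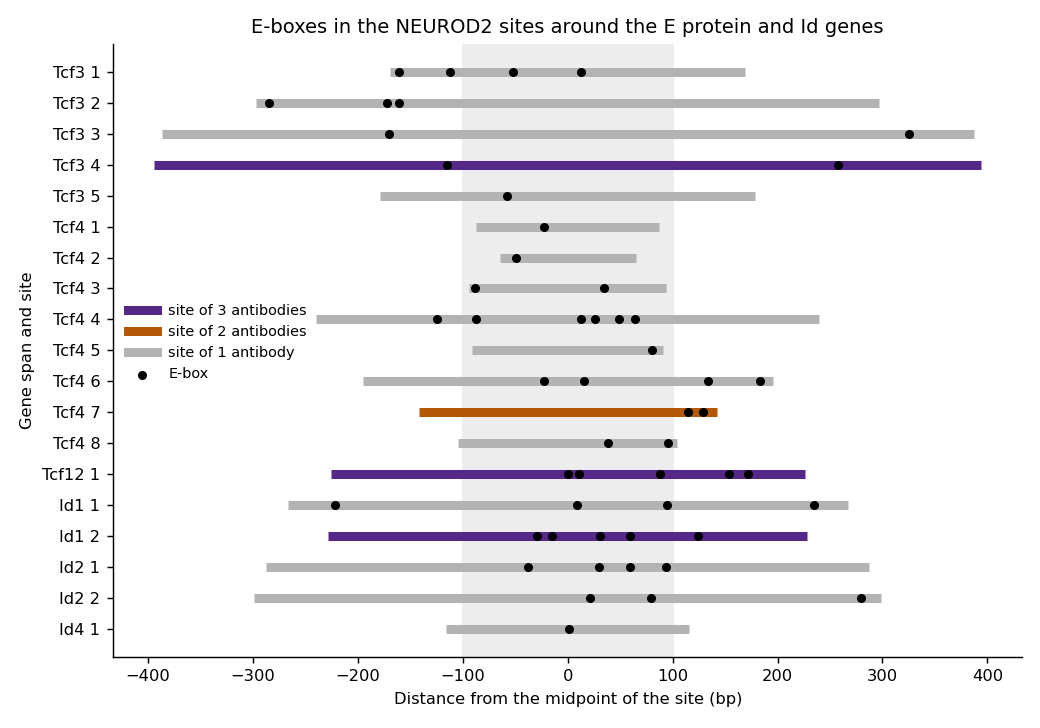
Positions of E-boxes (black dots) in the 19 sites, with distance from the midpoint of the site in bp on the horizontal axis and a bar for the extent of each site, colored by its number of antibodies, the gray band marking the central 200 bp. Every site holds at least 1 E-box, Tcf4 site 4 holds 6, and the E-boxes of Tcf3 sites 2, 3 and 4 and of Tcf4 site 7 lie outside the band.

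Over the 19 sites there were 53 E-boxes. The CAGATG form occurred 16 times at 9 sites, CAGCTG 12 times at 9 sites and the CACCTG form, which includes CAGGTG, 7 times at 6 sites. No other form occurred more than 6 times. The 3 shared sites had 2.33 ± 2.08 E-boxes in the center (mean ± SD, n = 3 sites) and 1.83 on average in windows of the same length 2000 bp from their edges. The 13 sites of antibody 2 alone had 1.85 ± 1.41 in the center and 1.12 in such windows, and over all sites of antibody 2 alone the centers had 1.74 on average.

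In 300-base windows of RefSeq (GRCm38.p6) at the starts of transcripts, which were matched for 5 of the 7 genes, the Tcf12 window under the shared site held 1 E-box, a CAGCTG, and the Id2 window held 1, also a CAGCTG. The windows of Id3 and Id4 held no CANNTG, while 72.3% of the 32851 windows of all genes held at least 1 and 16.3% held a CAGCTG. No peak overlapped the windows of Id3 and Id4. The same was true of the Tcf3 window, with 1 E-box, and of the other Tcf12 windows, with 1 and 2, so that windows with an E-box occurred both with and without a peak.

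Other genes that act with E and Id proteins were described in the same way, from a list of 44. The list was written with earlier results of these data known. It includes Neurod6 and Bhlhe22, which the paper had selected from its peaks for ChIP-qPCR, so its shares are not independent of these data. A shared site was present in the span of 12 of them (27.3%, against 15.6% of all protein-coding genes), and 28 had a peak of any antibody (63.6%, against 55.3%). Cofactors of E proteins had 4 of 9 genes with a shared site, other bHLH partners of E proteins 4 of 14, other HLH repressors 1 of 8, the BMP pathway 2 of 11 and genes of Id protein turnover 1 of 2. For the first 4 of these groups the shares were 44.4%, 28.6%, 12.5% and 18.2% of few genes each. The share over all protein-coding genes rose with length, from 12.4% under 10 kb through 15.3% (10 to 30 kb), 15.9% (30 to 100 kb) and 21.7% (100 to 200 kb) to 31.8%. The cofactor genes measure between 13.6 and 328 kb and the BMP pathway genes between 7.15 and 332 kb, whereas the bHLH genes reach from 1.69 to 15.3 kb and the HLH repressors from 1.45 to 16.3 kb. The groups were not matched for length, and no test was made of their shares. The midpoint of a shared site lay in the body or within 1000 bp of a TSS in 7 of the 44 (15.9%, against 5.41% of all protein-coding genes). The highest was at Hes6, which encodes a HES family protein that favors neuronal differentiation, with 928.49, 1236.8 and 425.2 for antibodies 1, 2 and 3 and a rank of 69 among the 2088 shared sites. Next came Cbfa2t3, which encodes a corepressor of the ETO family that binds E proteins, with 465.85, 668.52 and 254.56 and a rank of 247. Its relative Cbfa2t2 had an intronic site with 133.77, 308.41 and 55.89. Among the bHLH factors, the promoter sites of Neurod6, Neurod2 and Bhlhe22 had summed scores of 785.52, 719.9 and 531.7. All 6 of these genes had at least 1 E-box in the center of the site, and Hes6, Cbfa2t2 and Bhlhe22 had 4 each.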

How the data were processed

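The members and lists were chosen with earlier results of these data known. The authors mapped reads to mm10 (GRCm38) with Bowtie and called peaks for each antibody alone with MACS, with the GFP reads as control. The deposited peak lists hold positions with a MACS score (the log10 of p multiplied by minus 10), and the deposited table holds 1 score per site. In 2051 of its 2071 sites the limits equal those of a site merged here, and in each of these the score equals, within 0.01, the sum over the antibodies. Read depth is unknown from these files, and both the number and the scores of peaks rise with depth. Since cortex is a mixture of cells, binding in few cells and weak binding in many cannot be told apart.

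From the files, peaks sharing at least 1 bp were merged, and gene bodies and TSSs were taken from GENCODE M21. All peaks on the assembled nuclear chromosomes lay within the GRCm38 lengths of these, and 21938 protein-coding genes formed the background. E-boxes (CANNTG, its own reverse complement) were counted in the reference, over whole sites, over their central 200 bp and in windows 2000 bp from the edges. Overlapping E-boxes were each counted. The genes named were all 7 members, the gene of the closest TSS for each site, up to 6 of the listed HLH genes with the highest shared site, and the 3 genes most alike by summed scores. The alternatives concerned the score, the overlap, the span, the transcripts, the E-box window, the deposited table and leaving out each antibody. The routines were tested on simulated data. Python 3.11.15, numpy 2.4.6, pandas 2.3.3 and matplotlib 3.10.9 were used.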

Additional observations from a re-analysis of the deposited data

How the results depend on the processing

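No paired analysis was possible because the 3 antibodies form a single group. The shared sites in the 7 spans numbered 3, at 3 genes, and the same numbers were found in the authors' table, with a stricter overlap of the peaks and with protein-coding transcripts only. With scores of at least 100 from every antibody 0 shared sites at 0 genes were left, so there was no E-box value, the merged sites fell from 19 to 8 and the share of protein-coding genes with a shared site to 7.53%. With the gene body alone, 1 shared site at 1 gene (Tcf12), 11 merged sites and a share of 5.20% were found, and with 10 kb on each side 1, 1, 12 and 7.52%. With 100 kb on each side there were 4 shared sites and the share was 23.6%. Leaving out 1 antibody gave 3 to 4 shared sites at 3 to 4 genes, 4 to 6 genes with any peak, 6 to 19 merged sites (6 without antibody 2) and a share of 15.7% to 25.4%. The fourth shared site, without antibody 1, was that of antibodies 2 and 3 in Tcf4. The mean number of E-boxes per shared site, 2.33, ranged from 2.00 to 2.67 over these, was 3.00 with the gene body alone or 10 kb on each side and 2.25 with 100 kb, and was 1.67 in the central 100 bp and 1.64 per 200 bp of the whole site. Peak lists do not show binding below their threshold, and only 9 of the 26 peaks had a score of 100 or more.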

Other observations

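The genes most like the members with a shared site were found by the distance between the log10 of 1 plus the summed scores in the span, over the 3 antibodies. For Tcf12, with sums of 129.64, 297.45 and 77.01, they were Adamts15 and Adamts8 (137.89, 295.24 and 74.2 for both, at a distance of 0.0312) and Agxt (121.68, 314.13 and 77.87). For Id1, with 91.2, 218.03 and 53.47, they were Tanc1, Haao and Pkia, at distances of 0.0433 to 0.0599. For Tcf3, with 70.19, 754.3 and 78.22, they were Emilin3 and Lpin3, which had identical sums, and 1700069L16Rik, at 0.0683 to 0.0739. The likeness covers 3 libraries and the total score only, not the position of the peaks.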
